A study of Mus musculus with 20 samples.

Results

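The 9 enzymes that carry hydroxymethylglutaryl-CoA (HMG-CoA) synthesis through mevalonate to lanosterol, the first sterol of the cholesterol route, were followed in mouse liver RNA. The members were taken by gene name alone (Hmgcs1, Mvk, Pmvk, Mvd, Idi1, Fdps, Fdft1, Sqle and Lss), and all 9 were found among the 38924 genes of the table. The 20 livers came from male mice, 5 in each of 4 groups. NDWT mice were C57/BL6 wild type (WT) on control diet and NDKO mice were labelled TSP-1 null, a line purchased from a vendor that carries a targeted Thbs1 allele, on the same diet. HFWT and HFKO mice were the matching genotypes on CDAHFD, a high fat diet defined by its amino acids, low in methionine and without choline. All mice were 5 weeks old at purchase, were acclimated for 1 week and were then kept on their diet for 12 weeks. Both genotypes were purchased from the same vendor, the TSP-1 null mice under a stock number of their own. Genotype can therefore not be told apart from source colony. Whether any mice were littermates, and at what time of day the livers were taken, is not given in the sources used here.

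The mevalonate pathway builds isoprenoid units from acetyl-CoA and joins them into farnesyl diphosphate, the branch point from which squalene and the sterols are made. Liver is a main site of cholesterol synthesis, and the genes of the pathway are known as targets of the transcription factor SREBP-2, which is held back when sterols are plentiful. The members act in the order Hmgcs1, Mvk, Pmvk, Mvd, Idi1, Fdps, Fdft1, Sqle and Lss.

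Promoter sequence of 3 members is shown because the pathway is known for its shared sterol control. RefSeq windows of the 250 bases before an annotated start site (build GRCm38.p6, written 5′ to 3′ on the strand of the gene) were matched for 6 of the 9 members. Fdps, Fdft1 and Sqle had no entry. Capitals mark matches on either strand to CACNCCAC, the core of the sterol regulatory element, to CCAAT, the NF-Y box, or to GGGCGG, the GC box bound by Sp1. No match overlapped another. The windows shown are those of Hmgcs1 (chr13:119690101-119690350, plus strand), Mvk (chr5:114444019-114444268, plus strand) and Mvd (chr8:122443423-122443672, minus strand).
Hmgcs1: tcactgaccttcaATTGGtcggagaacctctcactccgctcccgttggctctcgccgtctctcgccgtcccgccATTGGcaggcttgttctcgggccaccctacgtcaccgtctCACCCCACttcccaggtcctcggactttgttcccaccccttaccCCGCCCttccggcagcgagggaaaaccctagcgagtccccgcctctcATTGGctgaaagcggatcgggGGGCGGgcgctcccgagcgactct
Mvk: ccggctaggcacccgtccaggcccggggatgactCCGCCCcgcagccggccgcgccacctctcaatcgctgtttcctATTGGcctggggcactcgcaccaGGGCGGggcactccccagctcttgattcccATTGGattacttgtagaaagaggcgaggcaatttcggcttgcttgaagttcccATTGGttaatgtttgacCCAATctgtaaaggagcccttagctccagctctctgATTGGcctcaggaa
Mvd: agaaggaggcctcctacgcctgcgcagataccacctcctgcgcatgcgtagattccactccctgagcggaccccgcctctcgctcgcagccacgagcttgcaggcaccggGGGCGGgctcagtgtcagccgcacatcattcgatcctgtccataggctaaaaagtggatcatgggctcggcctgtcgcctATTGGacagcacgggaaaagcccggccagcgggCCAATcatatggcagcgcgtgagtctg
CACNCCAC was matched in the window of Hmgcs1 alone, with its first base 136 bases before the start site. CCAAT was matched in a window of each of the 6 genes, at 5 places in Mvk, 3 in Hmgcs1, 2 in Mvd, 2 in Idi1, 1 in Lss and 1 in Pmvk, which had 2 windows and no match in the other. The Pmvk window with the match (chr3:89454291-89454540) belongs to a distant start site, well upstream of the gene start given below (89459118). The Pmvk window without a match to any of the motifs (chr3:89459321-89459570) lies within the gene. GGGCGG was matched at 2 places in each of Hmgcs1, Mvk and Lss and at 1 in each of Mvd and Idi1. Of 32851 windows of the same length in the RefSeq table, 5.29% held CACNCCAC, 33.8% held CCAAT, 32.7% held GGGCGG and 1.6% held both CACNCCAC and CCAAT. A match of letters is a description of the sequence and not a measurement of binding.

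Library depth, recovered from the steps between low values, ranged from 15641545 to 23276322 fragments with a median of 18950482.5, so the members were read from 41 (Mvd) to 11416 (Hmgcs1) fragments per liver. The targeted gene did not show a loss of transcript in the mice labelled TSP-1 null. Thbs1, which encodes TSP-1, measured 0.0580 to 0.326 FPKM (fragments per gene length and library size) in NDWT and 0.986 to 1.90 FPKM in NDKO, higher in the null mice by 2.28 on the log2 scale (FDR 1.02e-05). On CDAHFD the levels were 3.46 to 6.10 FPKM in HFWT and 3.05 to 4.40 FPKM in HFKO, a difference of -0.39 (FDR 0.408). The null mice are therefore called labelled TSP-1 null. Summed hepatocyte markers were 47824 to 51648 FPKM in NDWT and 32732 to 44864 FPKM in HFWT, so both diets gave liver tissue by its defining genes.

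All 9 members were higher on CDAHFD in both genotypes, and in none of them did a CDAHFD liver overlap a control diet liver of its genotype. In WT the rise ran from 2.31-fold for Fdft1 to 10.7-fold for Sqle, and in labelled TSP-1 null mice from 1.81-fold for Pmvk to 10.8-fold for Sqle. A gene was called when its false discovery rate (FDR, Benjamini-Hochberg over all genes tested) was under 0.05 and its log2 fold change was above 0.58 in size, in a limma fit of log2(FPKM + 0.1). The 9 members called of 9 stand beside a background in which 44.1% of the 14524 genes tested were called higher in WT and 41.9% in labelled TSP-1 null mice. Higher without overlap between the groups were 50.5% and 52.7% of genes. The median log2 fold change of the members was 2.42 in WT and 2.27 in labelled TSP-1 null mice, against 0.53 and 0.50 over all genes. The pseudocount of 0.1 understates the fold change of low genes.

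**Figure D1:**
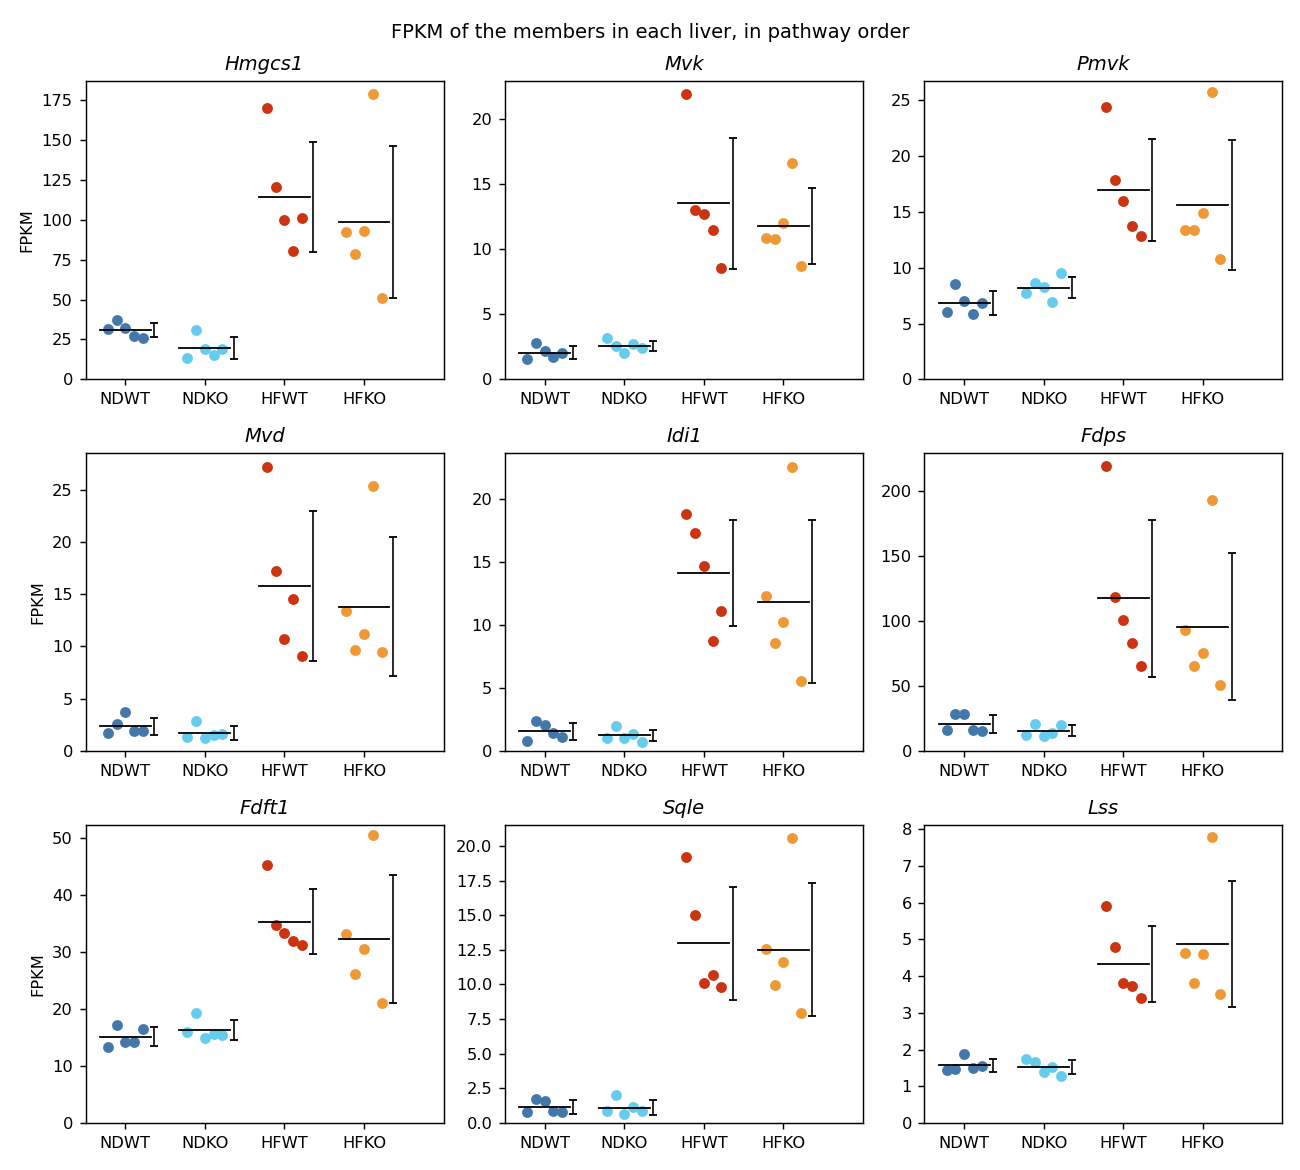
FPKM of each member (vertical axis, linear, from 0) in each liver, by group (horizontal axis), with the group mean as a line and its SD as a bar (n = 5). In all 9 panels the HFWT and HFKO points lie above the NDWT and NDKO points of their genotype, and the highest CDAHFD points are HFWT replicate 1 and HFKO replicate 4.

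Hmgcs1 (ENSMUSG00000093930.1, chr13:119690462-119708086, plus strand), cytosolic HMG-CoA synthase, condenses acetoacetyl-CoA with acetyl-CoA to give HMG-CoA. Its levels in NDWT replicates 1 to 5 were 31.4, 36.9, 32.4, 27.1 and 26.0 FPKM, and in NDKO they were 13.6, 30.7, 18.8, 15.5 and 19.2 FPKM. On CDAHFD they were 170.3, 120.5, 100.1, 80.1 and 101 FPKM in HFWT and 92.6, 78.3, 92.7, 179 and 51.0 FPKM in HFKO. The lowest CDAHFD liver, HFKO replicate 5, was above every control diet liver, and HFKO replicate 4 and HFWT replicate 1 were the highest. The rise was 1.86 ± 0.26 on the log2 scale in WT (SE, FDR 3.63e-06) and 2.27 ± 0.26 in labelled TSP-1 null mice (FDR 3.14e-07). Of all genes tested, 12.4% had a larger log2 fold change in WT.

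Mvk (ENSMUSG00000041939.8, chr5:114444269-114460591, plus strand), mevalonate kinase, adds the first phosphate to mevalonate. It was low on control diet, at 1.59, 2.78, 2.21, 1.68 and 2.04 FPKM in NDWT and 3.15, 2.54, 2.02, 2.69 and 2.39 FPKM in NDKO. On CDAHFD it measured 21.9, 13.0, 12.7, 11.5 and 8.52 FPKM in HFWT and 10.9, 10.8, 12.0, 16.6 and 8.71 FPKM in HFKO. The groups of each genotype were well apart, with the lowest CDAHFD liver at 8.52 FPKM and the highest control diet liver at 3.15 FPKM. Mvk rose by 2.61 ± 0.21 (log2, SE) in WT (FDR 1.54e-09) and by 2.14 ± 0.21 in labelled TSP-1 null mice (FDR 2.72e-08).

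Pmvk (ENSMUSG00000027952.10, chr3:89459118-89469013, plus strand), phosphomevalonate kinase, adds the second phosphate. It had one of the smallest changes of the pathway. On control diet it measured 6.02, 8.55, 7.01, 5.89 and 6.85 FPKM in NDWT and 7.74, 8.61, 8.27, 6.94 and 9.54 FPKM in NDKO, and on CDAHFD 24.4, 17.9, 16.0, 13.7 and 12.9 FPKM in HFWT and 13.4, 13.4, 14.9, 25.7 and 10.7 FPKM in HFKO. The distance between diets was small in labelled TSP-1 null mice, where the highest NDKO liver at 9.54 FPKM lay just under the lowest HFKO liver at 10.7 FPKM. The log2 rise was 1.27 ± 0.19 in WT (FDR 7.69e-06) and 0.86 ± 0.19 in labelled TSP-1 null mice (FDR 5.26e-04), or 0.36 above the median of all genes. With the libraries rescaled by medians of ratios Pmvk was not called in labelled TSP-1 null mice (0.33, FDR 0.132), nor after quantile normalization (0.41, FDR 0.0747).

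Mvd (ENSMUSG00000006517.4, chr8:122433596-122443422, minus strand), diphosphomevalonate decarboxylase, gives isopentenyl diphosphate, the isoprenoid unit. Control diet levels were 1.76, 2.59, 3.73, 1.92 and 1.88 FPKM in NDWT and 1.38, 2.85, 1.25, 1.49 and 1.60 FPKM in NDKO. CDAHFD levels were 27.2, 17.2, 10.8, 14.5 and 9.07 FPKM in HFWT and 13.4, 9.62, 11.1, 25.3 and 9.45 FPKM in HFKO. No CDAHFD liver came near the control diet range, and NDWT replicate 3 and NDKO replicate 2 were the highest of their groups. Mvd rose by 2.63 ± 0.31 (log2, SE) in WT (FDR 2.73e-07) and by 2.89 ± 0.31 in labelled TSP-1 null mice (FDR 8.70e-08).

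Idi1 (ENSMUSG00000058258.8, chr13:8885501-8892451, plus strand), isopentenyl diphosphate isomerase, gives dimethylallyl diphosphate, the starter of chain growth. It measured 0.834, 2.41, 2.10, 1.46 and 1.09 FPKM in NDWT and 1.08, 1.96, 1.07, 1.36 and 0.734 FPKM in NDKO. In HFWT the values were 18.8, 17.3, 14.7, 8.77 and 11.1 FPKM, and in HFKO 12.3, 8.57, 10.2, 22.6 and 5.60 FPKM. Every CDAHFD liver was above every control diet liver, with HFKO replicate 5 the lowest. The log2 rise of 3.12 ± 0.34 in WT (FDR 9.05e-08) and 3.07 ± 0.34 in labelled TSP-1 null mice (FDR 1.31e-07) was exceeded by 2.44% and 1.93% of genes. Idi2, the paralogue known mainly from muscle, was listed at 0 in 19 livers and at 0.10 FPKM in NDWT replicate 3 and was not tested.

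Fdps (ENSMUSG00000059743.8, chr3:89093592-89101967, minus strand), farnesyl diphosphate synthase, joins the units into farnesyl diphosphate. It was abundant and varied widely between mice. Control diet livers measured 16.4, 28.8, 28.3, 16.0 and 15.2 FPKM in NDWT and 12.4, 20.9, 11.5, 14.1 and 19.7 FPKM in NDKO. CDAHFD livers measured 219, 119, 101, 83.0 and 65.7 FPKM in HFWT and 93.2, 65.8, 75.8, 193 and 51.1 FPKM in HFKO. HFWT replicate 1 had more than any other liver, and within each CDAHFD group the highest mouse stood far above the lowest without the diets overlapping. The mean rose from 20.9 ± 6.97 to 118 ± 60.1 FPKM in WT (SD, n = 5), a log2 change of 2.42 ± 0.33 (SE, FDR 2.50e-06). In labelled TSP-1 null mice the log2 change was 2.48 ± 0.33 (FDR 1.99e-06).

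Fdft1 (ENSMUSG00000021273.9, chr14:63145153-63177793, minus strand), squalene synthase, commits farnesyl diphosphate to sterols. Its control diet levels were close together, at 13.4, 17.2, 14.3, 14.1 and 16.5 FPKM in NDWT and 16.0, 19.3, 14.9, 15.6 and 15.4 FPKM in NDKO. On CDAHFD it measured 45.2, 34.8, 33.3, 31.8 and 31.2 FPKM in HFWT and 33.1, 26.1, 30.5, 50.4 and 21.0 FPKM in HFKO. HFKO replicate 5 was the nearest to the control diet range, at 21.0 FPKM against 19.3 FPKM in NDKO replicate 2. The log2 rise was 1.21 ± 0.16 in WT (FDR 2.07e-06) and 0.93 ± 0.16 in labelled TSP-1 null mice (FDR 5.17e-05). Rescaled by medians of ratios, the change in labelled TSP-1 null mice was 0.39 (FDR 0.0444), under the fold threshold.

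Sqle (ENSMUSG00000022351.8, chr15:59315077-59331192, plus strand), squalene epoxidase, makes the oxygen-requiring step that follows and is known as a second control point of the route. It had the lowest mean of the members in both control diet groups, though not in every liver, at 0.767, 1.74, 1.59, 0.851 and 0.804 FPKM in NDWT and 0.865, 2.02, 0.608, 1.14 and 0.838 FPKM in NDKO. It measured 19.2, 15.0, 10.1, 10.7 and 9.83 FPKM in HFWT and 12.6, 9.94, 11.6, 20.5 and 7.97 FPKM in HFKO. The lowest CDAHFD liver, at 7.97 FPKM, was far above the highest control diet liver, at 2.02 FPKM. Sqle had the largest change of the members in both genotypes, 3.41 ± 0.30 on the log2 scale in WT (SE, FDR 6.30e-09) and 3.43 ± 0.30 in labelled TSP-1 null mice (FDR 6.93e-09). Of all genes tested, 1.64% and 1.18% had a larger one.

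Lss (ENSMUSG00000033105.6, chr10:76531588-76557138, plus strand), lanosterol synthase, closes the ring. Its control diet levels were 1.44, 1.48, 1.88, 1.5 and 1.55 FPKM in NDWT and 1.73, 1.67, 1.39, 1.54 and 1.28 FPKM in NDKO. On CDAHFD it measured 5.92, 4.78, 3.81, 3.72 and 3.40 FPKM in HFWT and 4.64, 3.81, 4.60, 7.80 and 3.52 FPKM in HFKO. The groups did not overlap, though all livers stayed under 8 FPKM. The log2 rise was 1.38 ± 0.18 in WT (FDR 9.18e-07) and 1.57 ± 0.18 in labelled TSP-1 null mice (FDR 2.02e-07). The table gives Lss a length of 10787 bases, the longest of the members, and FPKM values are divided by that length.

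The scaling of the libraries moved the diet values. In WT 6412 genes were called higher and 671 lower. After rescaling by medians of ratios the counts were 3299 and 2242, and after quantile normalization 2514 and 2562. In labelled TSP-1 null mice they were 6088 and 581, 3225 and 1980, and 2421 and 2186. Under both scalings the 9 members kept their direction, and 9 of 9 were called in WT. In labelled TSP-1 null mice 7 of 9 were called after medians of ratios and 8 of 9 after quantile normalization. Relative to the median of all genes, the members' median was 1.88 higher in WT and 1.77 higher in labelled TSP-1 null mice.

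CDAHFD livers also differed in cell markers. All 6 stellate cell, 5 cholangiocyte and 5 T cell markers were called higher on CDAHFD in both genotypes, as were 5 of 6 macrophage markers, while Clec4f, a Kupffer cell lectin, was lower. The summed cholangiocyte markers were 15.2 to 18.0 FPKM in NDWT and 292 to 488 FPKM in HFWT. Summed macrophage markers were 127 to 175 FPKM in NDWT and 888 to 1190 FPKM in HFWT. Of 6 hepatocyte markers, 2 were lower in WT and 3 in labelled TSP-1 null mice, and no hepatocyte marker was higher. Of 11 clock genes, 4 were called higher in WT and 5 in labelled TSP-1 null mice, beside 44.1% and 41.9% of all genes, and their median log2 fold changes of 0.55 and 0.53 lay near the 0.53 and 0.50 of all genes. Those called higher in both included Per1 (1.60 and 1.20) and Ciart (1.34 and 2.03). The part of cell composition and of time of day in the members' rise was not tested, and in bulk tissue fewer cells of a type cannot be told apart from less RNA per cell.

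Between the genotypes no member was called on either diet. On control diet 0 of 9 members were called by limma, where 4.77% of all genes were called in either direction, and 1 member, Hmgcs1, had an unadjusted p under 0.05. On CDAHFD 0 of 9 were called, against 0.496% of all genes, and 0 had an unadjusted p under 0.05. These comparisons use the same libraries as the diet comparisons. Hmgcs1 was -0.70 ± 0.26 (log2, SE) in NDKO relative to NDWT, with a 95% interval of -1.25 to -0.15 and FDR 0.0893. Its means were 30.8 ± 4.37 FPKM in NDWT and 19.6 ± 6.66 FPKM in NDKO (SD, n = 5), with 4 of 5 NDKO livers below every NDWT liver and NDKO replicate 2 within their range. Without NDKO replicate 2 Hmgcs1 was called lower (-0.88, FDR 0.0344), and also without HFKO replicate 4, which enters only the shared estimate of spread (-0.70, FDR 0.0423).

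For the other members the control diet differences ran from -0.45 for Mvd (95% interval -1.09 to 0.19) to 0.31 for Mvk (-0.12 to 0.75). On CDAHFD they ran from -0.35 for Idi1 (-1.05 to 0.35) to 0.14 for Lss (-0.23 to 0.51). Sqle lay close to 0 on both diets, at -0.09 (-0.72 to 0.54) and -0.07 (-0.70 to 0.56). The control diet intervals of Mvd and Fdps both reached -1.09, so a fall of that size is not left out by 5 mice a group. The change with diet was compared between genotypes by the interaction, in which 0 of 9 members and 0.647% of all genes were called, and 0 members had an unadjusted p under 0.05. The interaction estimates ran from -0.47 for Mvk (-1.09 to 0.15) to 0.41 for Hmgcs1 (-0.37 to 1.19).

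**Figure D2:**
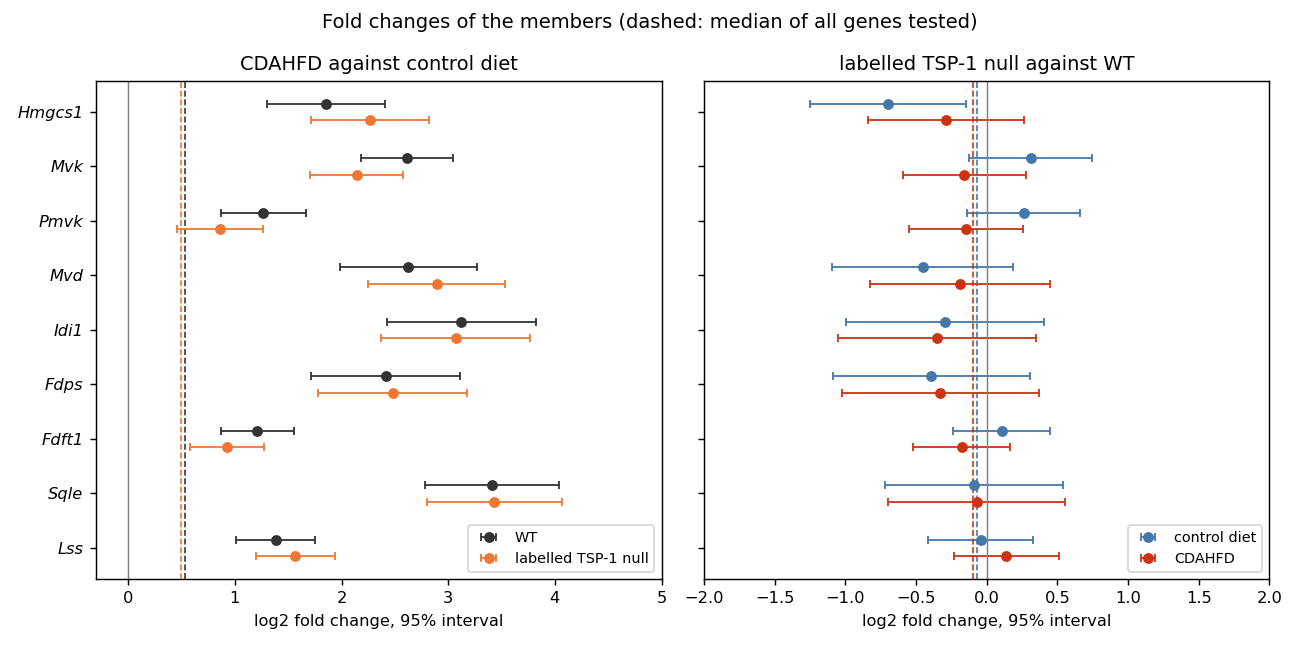
Log2 fold change of each member (horizontal axis) with its 95% interval, for CDAHFD against control diet (left) and labelled TSP-1 null against WT (right), with the median of all genes tested as dashed lines. All diet intervals lie above 0, with estimates from 0.86 for Pmvk to 3.43 for Sqle in labelled TSP-1 null mice, whereas of the genotype intervals that of Hmgcs1 on control diet alone leaves 0 out.

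The unequal rise of the members reordered the pathway. On control diet Hmgcs1 led in WT at 30.8 ± 4.37 FPKM (SD, n = 5), above Fdps in 5 of 5 livers, with Fdft1 next and above Pmvk in 5 of 5. Mvd and Mvk changed places between livers (Mvd above Mvk in 3 of 5), as did Idi1 and Lss (2 of 5), and Sqle was last on average at 1.15 ± 0.473 FPKM. In HFWT Fdps and Hmgcs1 shared the top, at 118 ± 60.1 and 114 ± 34.3 FPKM, with Fdps the higher in 3 of 5 livers. Pmvk, Mvd, Idi1, Mvk and Sqle then lay between 13.0 and 17.0 FPKM on average, with no neighbour above the next in all 5 livers. By FPKM, Lss was last in every CDAHFD liver, at 4.33 ± 1.03 FPKM in HFWT and 4.87 ± 1.71 FPKM in HFKO. The order between genes rests on the gene lengths used, from 1241 bases for Fdps to 10787 bases for Lss. In fragments, HFWT livers held 634 to 1145 of Lss and 337 to 662 of Pmvk. The summed FPKM of the 9 members was 82.4 ± 14.6 for NDWT, 67.9 ± 13.6 for NDKO, 345 ± 124 for HFWT and 297 ± 143 for HFKO (SD, n = 5). Hmgcs1 and Fdps together made 62.5% ± 3.3 of the sum for NDWT, 51.3% ± 4.8 for NDKO, 66.6% ± 2.6 for HFWT and 64.3% ± 3.0 for HFKO.

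The ratio of each enzyme to the one before it was compared within each liver, which leaves out any common scaling of the library. Of 8 ratios, 6 changed with diet in WT and 6 in labelled TSP-1 null mice by a two-sided exact permutation test over livers, adjusted over the 32 tests of 4 comparisons. Neighbouring ratios share an enzyme, so they are not separate results. The share of other gene pairs that would pass the same test was not measured. The smallest p that 5 livers against 5 can give is 0.00794, which becomes 0.0195 after adjustment. Sqle over Fdft1 rose by 2.20 on the log2 scale in WT, from -3.68 ± 0.49 to -1.47 ± 0.24, and by 2.51 in labelled TSP-1 null mice, from -3.87 ± 0.46 to -1.37 ± 0.04 (SD, n = 5, exact adjusted p = 0.0195 for each). Lss over Sqle fell by 2.03 in WT and by 1.87 in labelled TSP-1 null mice (exact adjusted p = 0.0195 for each). Fdft1 over Fdps fell by 1.20 and 1.55, and Pmvk over Mvk by 1.35 and 1.28, while Mvd over Pmvk rose by 1.36 and 2.03, with no overlap between diets. Idi1 over Mvd moved by 0.50 in WT and 0.18 in labelled TSP-1 null mice and did not pass (exact adjusted p = 0.198 and 0.66). Fdps over Idi1 passed in labelled TSP-1 null mice (-0.59, exact adjusted p = 0.0195), and in WT its difference of -0.71 had an exact adjusted p of 0.0508.

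Mvk over Hmgcs1 passed with diet in WT (0.76, exact adjusted p = 0.0195) and had a difference of -0.12 in labelled TSP-1 null mice (exact adjusted p = 0.853). Whether the change in this ratio differs between genotypes was not tested. The same ratio was higher in NDKO than in NDWT, at -2.84 ± 0.58 against -3.85 ± 0.24 (log2, SD, n = 5), a difference of 1.01 without overlap (exact adjusted p = 0.0195). It was 1 of the 8 ratios past the test between genotypes on control diet, and without NDKO replicate 2 the count was 2. On CDAHFD 1 of 8 ratios passed, Lss over Sqle, which was 0.21 higher in HFKO (exact adjusted p = 0.0363) with overlapping groups. That count was 0 with a pseudocount of 1 and also without any 1 of HFWT replicates 1 and 2 and HFKO replicates 2, 3, 4 and 5.

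**Figure D3:**
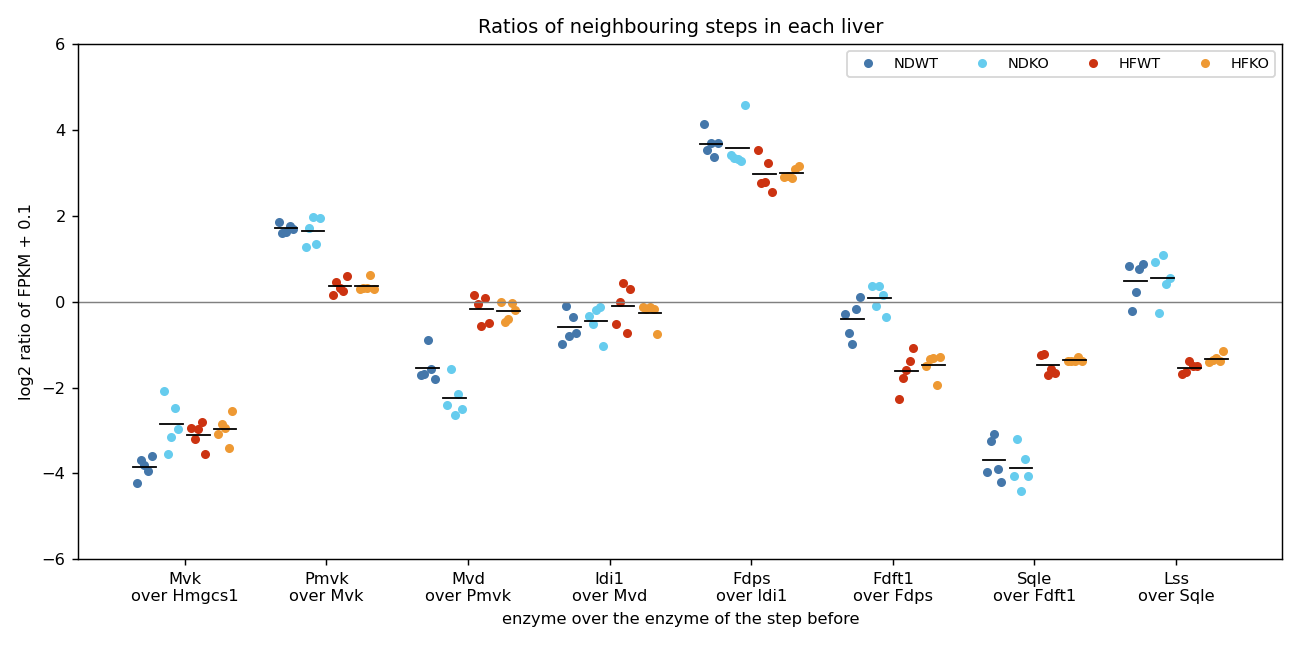
Log2 ratio of FPKM + 0.1 (vertical axis) between each enzyme and the enzyme of the step before (horizontal axis), with each liver as a point and group means as lines (n = 5). Sqle over Fdft1 moves from -3.68 in NDWT to -1.47 in HFWT and Lss over Sqle from 0.49 to -1.54, while Idi1 over Mvd overlaps between all groups.

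The other genes of sterol and isoprenoid metabolism moved less evenly. Their counts stand beside 44.1% of all genes called higher in WT and 41.9% in labelled TSP-1 null mice. Of 10 enzymes from lanosterol to cholesterol, 6 were called higher and 2 lower in WT, and 7 higher and 1 lower in labelled TSP-1 null mice, with median log2 fold changes of 1.06 and 1.39. Msmo1 (2.86 and 2.71) and Nsdhl (2.30 and 2.09), which remove the methyl groups at carbon 4, and Dhcr7 (1.66 and 1.51), a late reductase, rose in WT and labelled TSP-1 null mice. Lbr, a sterol reductase that is also a nuclear envelope protein, rose by 1.13 and 1.26. The sterol lists share their libraries with the members and were chosen with results of these data known.

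Of 10 genes of pathway entry and SREBP-2 control, 6 were higher and 1 lower in WT and 8 higher and 1 lower in labelled TSP-1 null mice. Srebf2, which encodes SREBP-2, rose by 1.41 and 1.5 in WT and labelled TSP-1 null mice. Mylip, which encodes an E3 ubiquitin ligase, rose by 0.79 and 0.61. Insig1, which retains the SREBP complex in the endoplasmic reticulum, rose by 0.94 and 1.70. Stard4, a sterol carrier, was the gene of this list called between genotypes, at -0.73 on control diet (FDR 0.0331).

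Of 12 genes of the dolichol, ubiquinone and protein prenylation branches, 4 were called higher and none lower in each genotype, with medians of 0.35 and 0.41 that lie below those of all genes. Dhdds, of dolichol synthesis, rose by 0.68 and 0.86 and Pggt1b, a prenyltransferase subunit, by 0.63 and 0.73. Rabggta (0.53 and 0.57) and Coq2 (0.41 and 0.41), of Rab prenylation and ubiquinone synthesis, stayed under the fold threshold.

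Fatty acid synthesis genes under SREBP-1 did not move as a block. Of 7 tested, 3 were called higher and 3 lower in WT and 4 higher and 2 lower in labelled TSP-1 null mice, and Pnpla3 did not pass the filter on low values. Scd1, the stearoyl-CoA desaturase, was -5.00 and -3.61, and Me1, malic enzyme, -2.10 and -1.20, while Srebf1 (1.5 and 1.24) and Acly (0.68 and 0.78), ATP citrate lyase, rose. Of 10 genes of cholesterol disposal and LXR response, 5 were higher and 1 lower in WT and 3 higher and 1 lower in labelled TSP-1 null mice, near or below the 44.1% and 41.9% of all genes called higher. Soat1, which esterifies cholesterol and is abundant in macrophages, rose by 2.90 and 2.61, and Abcg1, a sterol exporter, by 1.89 and 1.72. Nr1h2, LXR beta, rose by 0.80 in WT and had 0.57 in labelled TSP-1 null mice. Cyp8b1, a bile acid hydroxylase, was -2.28 and -2.09 with diet. It was higher in labelled TSP-1 null mice by 0.67 on control diet (FDR 0.0341) and by 0.85 on CDAHFD (FDR 0.0426). Cyp7a1, the rate-limiting enzyme of bile acid synthesis, was higher by 2.09 in NDKO than in NDWT (FDR 0.00578). Of 11 clock genes, Per1 was called higher and Per2 lower in NDKO than in NDWT, beside 4.77% of all genes called. In that comparison 5 of the 11 had an unadjusted p under 0.05 by limma, and on CDAHFD 0 were called. The part of time of day in the genotype differences, those of the members included, was not tested.

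**Figure D4:**
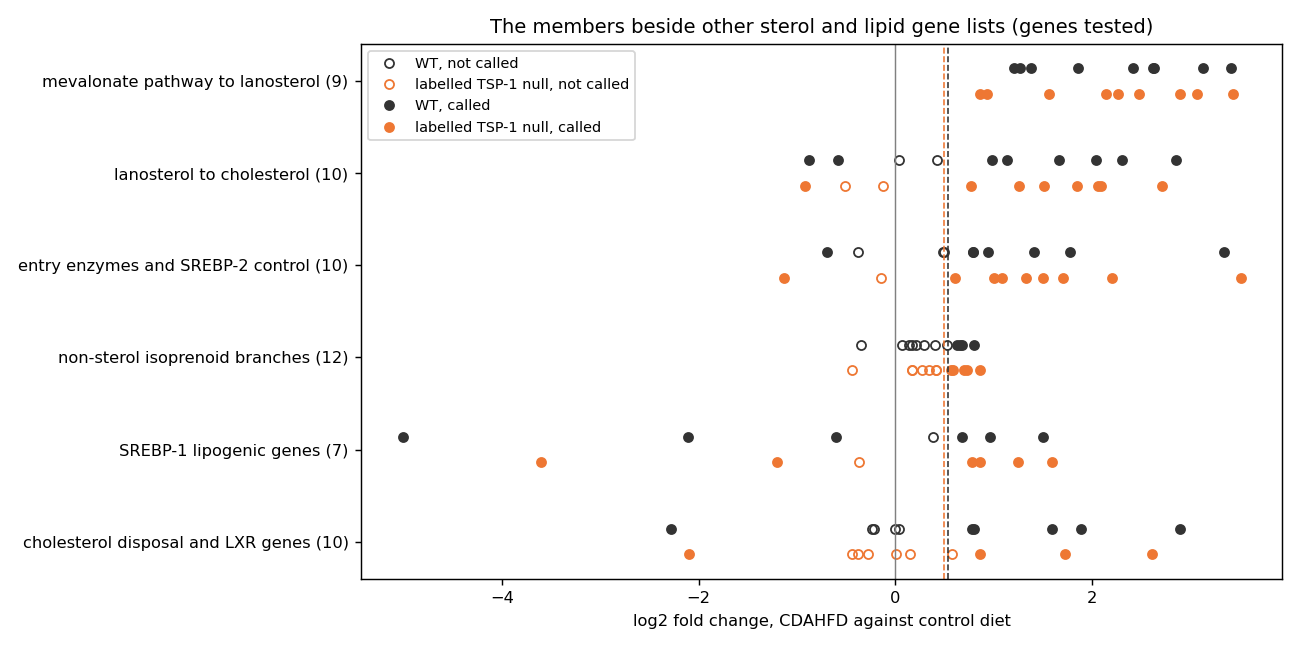
Log2 fold change with CDAHFD (horizontal axis) of the members and of 5 other gene lists, with the number of genes tested in brackets, filled points for called genes and dashed lines for the median of all genes. All 9 members lie at 0.86 or above in both genotypes, whereas the list from lanosterol to cholesterol reaches from -0.88 to 2.86 in WT and the SREBP-1 list from -5.00 to 1.5.

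Mice of the same group that were high in one member tended to be high in the others, though not in every liver. HFWT replicate 1 was the highest HFWT liver for 9 of 9 members and HFKO replicate 4 the highest HFKO liver for 9 of 9, while HFKO replicate 5 was the lowest for 9 of 9. On control diet NDWT replicate 2 was the highest of its group for 7 members and NDKO replicate 2 for 6. Other livers were mixed, with 4 of 9 members above the group mean in NDKO replicate 4, 3 in each of NDKO replicate 5 and NDWT replicate 5, and 6 in HFKO replicate 1. The correlations that follow pool both diets and were not computed for each diet alone. Averaged over members, the deviation from the group mean on the log2 scale was 0.86 in HFKO replicate 4, 0.64 in HFWT replicate 1, 0.44 in NDKO replicate 2 and -0.59 in HFKO replicate 5.

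The deviations were described by Pearson's r over the 20 livers after the group means were taken off. These points share library and depth with each other, and no p is given. Over the 36 pairs of members the median r was 0.79, from 0.58 for Hmgcs1 with Mvk to 0.91 for Mvd with Fdps. Without HFKO replicate 4 the median was 0.71, and without both HFKO replicate 4 and HFWT replicate 1, chosen after the data were seen as the farthest mice, it was 0.63 with a range of 0.21 to 0.87. Each member's r with the mean of the other members ran from 0.80 for Mvk to 0.94 for Fdps. Among 14515 other genes the r with the members' mean had a median of 0.050, with 5% of genes under -0.40 and 5% over 0.47. Only 13 of them, 0.0896%, exceeded the lowest member.

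The genes most like the members in this measure were Insig1 (0.91), Nsdhl (0.90), Cyp51 (0.89), which demethylates lanosterol, Msmo1 (0.89) and Mrps27 (0.87), a mitochondrial ribosome protein. Srebf2 had 0.63. Within groups the SD of the members on the log2 scale ran from 0.28 for Fdft1 to 0.58 for Fdps and Idi1, against a median of 0.22 over all genes tested. Cell type markers followed the members less closely, from -0.56 for Itgam of the macrophage list to 0.50 for Ttr of the hepatocyte list. All 6 macrophage markers (-0.56 to -0.24) and all 5 T cell markers had a negative r, and all 5 endothelium markers a positive one. The part of cell composition in the co-variation was not tested. Clock genes ran from -0.43 for Tef to 0.23 for Nr1d1.

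**Figure D5:**
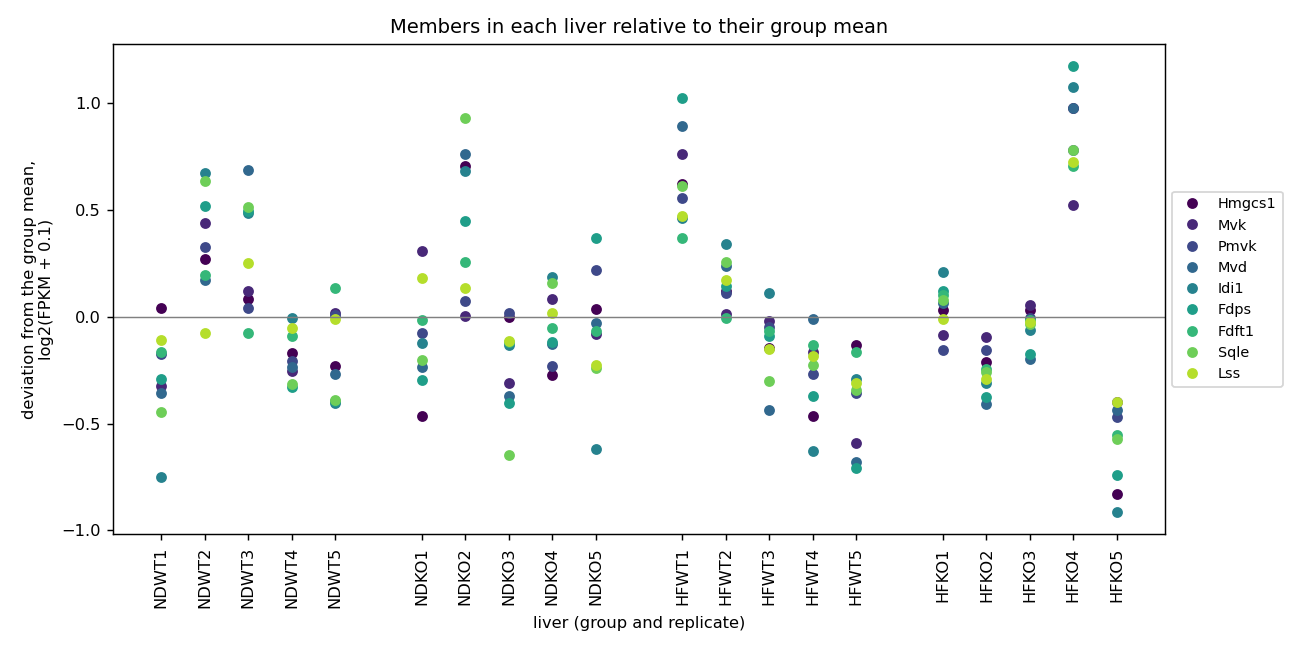
Deviation of each member from its group mean in log2(FPKM + 0.1) (vertical axis) in each of the 20 livers (horizontal axis), with a colour per member. All 9 points lie above 0 in NDKO replicate 2, HFWT replicate 1 and HFKO replicate 4, and all 9 below 0 in NDWT replicate 4, HFWT replicates 4 and 5, and HFKO replicates 2 and 5.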

How the data were processed

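Poly(A) RNA from 20 mouse livers was sequenced in paired 150 base reads. The deposited table holds FPKM values per gene, made by the authors from fragments counted per gene and divided by gene length and library size. The submitters' processing notes name STAR 2.5.2, Subread 1.5.1 with featureCounts, and the human build GRCh38, although the table lists mouse genes, of which 37607 of 38924 identifiers were found in GENCODE M21 (GRCm38), 99.8% of them overlapping the same place. Coordinates are those of the table. The study gives 1 nominal depth for all libraries, and the fragments in each were recovered from the steps of low values, with 100.00% of the values checked whole within 0.15 fragments. In the 40 pairs of libraries of the same group, none were copies of each other. Pairs across groups were not checked for this. Labels do not say whether mice shared cages or litters.

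The 14524 genes that exceeded 0.5 FPKM in 5 or more livers were fitted on log2(FPKM + 0.1) with limma 3.58.1 in R 4.3.3, with 1 mean per group over all 20 libraries and a trend in eBayes. A count test was not run, because the unit is FPKM. Neighbouring ratios were tested by exact permutation in Python 3.11.15. Both were tested on simulated data. Alternatives were pseudocounts of 0.01 and 1, looser filters, other scalings, no fold threshold, only the groups compared, no trend, blocking on replicate number and leaving out single mice.

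The members and lists were chosen with earlier results of these data known. Named genes are the members, Idi2, Srebf2, Insig1 and Thbs1, up to 4 genes per list with the lowest FDR in WT on CDAHFD, list genes called between genotypes or in the interaction, and the 5 other genes most like the members within groups. Clec4f, the marker and clock genes with the extreme correlations and genes of the closing observations were named after their values were seen. Msmo1, Ciart and Adgre1 were matched by gene identifier. Some genes that the rule names are not reported here.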

Additional observations from a re-analysis of the deposited data

Results flagged for a closer look

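Within groups of 5, a highest or lowest liver was set apart when its gap to the nearest other liver, divided by the range of the group on the log2 scale, was above 0.71. Of 60 groups tested (15 genes in 4 groups) 5 passed, where chance gives about 1 in 20. Among the members, Fdft1 in NDKO replicate 2 (19.3 FPKM) had a gap of 0.721 of the range, and Lss in NDWT replicate 3 (1.88 FPKM) had 0.724. Insig1 stood apart in NDKO replicate 2 (28.5 FPKM, 0.778) and in HFWT replicate 1 (96.0 FPKM, 0.833), livers that were also high in most members. Thbs1 stood apart in HFKO replicate 5 (4.40 FPKM, 0.771).

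The effect of diet on Thbs1 differed between the labelled genotypes, with an interaction of -2.66 on the log2 scale in limma (FDR 0.0023). Thbs1 rose by 4.03 in WT and by 1.36 in labelled TSP-1 null mice. The WT rise and the interaction rest on NDWT levels of 0.058 to 0.326 FPKM, near the pseudocount of 0.1. No member had an interaction past the threshold.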

How the results depend on the processing

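For the diet comparisons 537 of 540 values of single members kept their direction and their call under the alternatives. The exceptions were Pmvk (0.33 by medians of ratios, 0.41 by quantile normalization) and Fdft1 (0.39 by medians of ratios) in labelled TSP-1 null mice. Leaving out 1 mouse gave 0 to 1 members called between genotypes on control diet, and Hmgcs1 was the member called.

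Genotype differences and interactions near 0 changed sign. By scaling, Lss on control diet was 0.027 by medians of ratios and 0.021 by quantile normalization, Sqle on CDAHFD was 0.028 by medians of ratios, and the Fdps interaction was -0.020 by quantile normalization. With a pseudocount of 1 the Sqle interaction was -0.019. With 1 mouse left out, control diet values ranged from -0.33 to 0.069 for Sqle and from -0.090 to 0.019 for Lss. On CDAHFD they ranged from -0.31 to 0.033 for Mvk, from -0.43 to 0.034 for Mvd, from -0.27 to 0.081 for Sqle and from -0.042 to 0.26 for Lss. Interactions ranged from -0.32 to 0.17 for Idi1, from -0.23 to 0.32 for Fdps and from -0.18 to 0.25 for Sqle. None of these passed the test.

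Ratios past the test with diet, 6 in each genotype, numbered 7 in WT with a pseudocount of 0.01 and 5 in each genotype with a pseudocount of 1. With 1 mouse left out they numbered 6 to 7 in WT and 5 to 6 in labelled TSP-1 null mice. Ratios past the test between genotypes numbered 1 to 2 on control diet and 0 to 1 on CDAHFD with 1 mouse left out, and 0 on CDAHFD with a pseudocount of 1. The labels do not say whether the replicate numbers pair the mice, and mice of the same number did not deviate together across groups. Over 30 pairs of groups and numbers, r of the deviations ran from -0.13 to 0.08, and 0 exceeded 0.1. With the replicate number as a block, 9 of 9 members were called with diet in each genotype and 0 between genotypes. For the ratios the block gave 0 in each of the 4 comparisons, because 32 sign changes cannot give a p under 0.0625. The median r between members ranged from 0.71 to 0.82 with 1 mouse left out and was 0.63 without the 2 farthest mice, an alternative chosen after seeing the data. FPKM values carry no absolute scale, so a change in total RNA per liver could not be seen. The causes of these shifts were not tested.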

Other observations

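Some lipid genes followed the members from mouse to mouse but not with diet. They were picked out after their values were seen. Tm7sf2, a sterol reductase that can stand in for Lbr, had a within-group r of 0.84 with the members' mean over the 20 livers, and was lower on CDAHFD by limma in WT (-0.88, FDR 4.19e-04) and in labelled TSP-1 null mice (-0.92, FDR 2.73e-04). Ebp, the next isomerase of the route, had an r of 0.74 and log2 fold changes of -0.58 in WT and -0.52 in labelled TSP-1 null mice. Elovl6, a fatty acid elongase, had an r of 0.77 and values of -0.60 and -0.37. Soat1 showed the opposite, with an r of -0.62 and a rise with diet of 2.90 and 2.61. These correlations are descriptions over livers that share library and depth.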
